A study of Homo sapiens with 28 samples.

Results

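SKNMC is an established Ewing sarcoma line, grown here with doxycycline at 100 ng/ml to switch on a short hairpin RNA against FLI1 (shFLI1) or a scrambled hairpin (shScramble). The 6 shFLI1 libraries, 3 taken after 48 h of doxycycline and 3 after 24 h, are set against each other in all that follows, so that both groups carry the same hairpin and the same drug and differ in time. They were chosen by hairpin and time from a series of 28 total RNA libraries that also holds hairpins against CHD4. The genotype label of both shFLI1 groups is EWS-FLI1 knockdown, and the labels call the samples biological replicates without naming separate cultures. The same interval in shScramble cells, 5 libraries at 48 h and 5 at 24 h, served as the drift that passes in a day of culture. The genotype label of the 24 h shScramble libraries is wildtype, while that of the 48 h shScramble libraries reads CHD4 knockdown, against their title and treatment label. CHD4 had 9343 to 13100 normalised counts in those 48 h libraries and 10099 to 12879 in the 24 h shScramble libraries. Whether each hairpin line is a clone or a pool is not given in the sources used here.

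In Ewing sarcoma a chromosome fusion joins the amino-terminal part of EWSR1 to the DNA-binding part of FLI1, an ETS factor, and the fusion protein EWS-FLI1 drives the tumour. EWS-FLI1 is known to activate genes at GGAA repeats, NR0B1 among them, and to hold down genes of mesenchymal cells such as collagens, actin-binding proteins and inhibitors of growth factor signalling. The E2F factors with the RB proteins govern S phase genes, and the MuvB complex with B-MYB and FOXM1 governs genes of mitosis, while SRF, AP-1 and YAP with TEAD govern genes of the cytoskeleton and the matrix.

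The shFLI1 libraries held 46102707 to 54337772 reads and the shScramble libraries 47972710 to 64775442. Mitochondrial ribosomal RNA took 22.1 to 22.5% of reads in shFLI1 cells at 48 h, against 18 to 19.9% at 24 h, and in shScramble cells 16.2 to 17.98% at 48 h, against 15.2 to 17.8% at 24 h. The shFLI1 groups did not overlap (exact permutation test, two-sided, p = 0.1, the smallest that 20 splits allow). A normalised count of at least 10 was reached by 21057 to 22360 genes in shFLI1 cells at 48 h and by 20406 to 20670 at 24 h (exact permutation p = 0.1). In replicates 1 and 2 of shScramble processed pseudogenes took 0.317 to 0.372% of reads, with no difference in preparation given in the labels, against 0.239 to 0.283% in the shFLI1 libraries. The part of these differences in the results below was not tested.

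Replicate 3 of shFLI1 at 48 h stood apart from the other libraries. In it 236 genes had a normalised count of at least 100 that was 10 or more times that of every other shFLI1 library, while none of the other 15 libraries had more than 1 such gene. Those genes took 0.254% of its reads, and 186 of them were also 10-fold above all the other 27 libraries of the series. GPNMB had 370.9, 376 and 13669 normalised counts in the 3 libraries at 48 h, in order of replicate, against 374.3, 392 and 342.7 at 24 h. KCNIP4 had 3.54, 3.45 and 7914 at 48 h, against 2.07, 1.12 and 4.42 at 24 h, and SPP1 had 0, 0 and 3453 at 48 h, against 7.24, 0 and 4.42 at 24 h. CDH1, which marks epithelial cells, had 2.36, 20.7 and 782.9 at 48 h and at most 7.74 at 24 h. Of the 236 genes 188 were tested and 7 were called higher at 48 h, beside 19.3% of all genes tested. A gene high in only 1 library of its group has a wide spread, so the test seldom calls it. Because replicate 3 stood apart, counts of genes and list members called between 24 and 48 h were also made without it. Counts of list members against shScramble cells, counts by class of transcript and counts of groups without overlap were not. The cause of the difference of replicate 3 was not tested.

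The sequences of 6 promoters are given here because several of the gene groups described below are known to be governed through short motifs near the start site. They belong to the called members with a motif that had the smallest adjusted p of their group. Each is the RefSeq window of GRCh38.p14 from 250 bases before to 50 bases after the start of the gene, read 5′ to 3′ on the strand of the gene. Capitals mark the motif for which the promoter was chosen: TTTGAA, the cell cycle homology element (CHR), in BUB1B and CCNB2, which also has CCAAT boxes in capitals; an E2F motif in GINS1; the CArG box, bound by SRF, in EGR1 and MYLK; and GGAATG, bound by TEAD, in CCN2.
BUB1B, chr15:40160819-40161118, plus strand: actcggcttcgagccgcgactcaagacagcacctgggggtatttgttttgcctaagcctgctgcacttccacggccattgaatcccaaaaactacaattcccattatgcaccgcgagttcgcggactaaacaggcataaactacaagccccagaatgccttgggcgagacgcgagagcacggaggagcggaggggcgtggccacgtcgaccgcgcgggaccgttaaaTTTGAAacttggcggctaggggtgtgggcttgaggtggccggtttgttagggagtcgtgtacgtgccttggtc
CCNB2, chr15:59104896-59105195, plus strand: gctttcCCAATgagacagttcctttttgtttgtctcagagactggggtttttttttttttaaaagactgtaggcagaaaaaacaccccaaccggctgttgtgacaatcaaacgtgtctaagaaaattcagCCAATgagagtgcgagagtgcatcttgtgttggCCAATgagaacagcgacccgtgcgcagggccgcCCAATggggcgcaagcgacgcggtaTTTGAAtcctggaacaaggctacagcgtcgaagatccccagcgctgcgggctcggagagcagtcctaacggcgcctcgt
GINS1, chr20:25407423-25407722, plus strand: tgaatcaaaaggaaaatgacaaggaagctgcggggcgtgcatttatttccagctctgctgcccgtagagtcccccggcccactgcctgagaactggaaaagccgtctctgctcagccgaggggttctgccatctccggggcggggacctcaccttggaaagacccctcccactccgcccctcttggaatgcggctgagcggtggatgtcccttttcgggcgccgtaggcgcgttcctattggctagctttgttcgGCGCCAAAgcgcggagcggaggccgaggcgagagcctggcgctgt
EGR1, chr5:138465229-138465528, plus strand: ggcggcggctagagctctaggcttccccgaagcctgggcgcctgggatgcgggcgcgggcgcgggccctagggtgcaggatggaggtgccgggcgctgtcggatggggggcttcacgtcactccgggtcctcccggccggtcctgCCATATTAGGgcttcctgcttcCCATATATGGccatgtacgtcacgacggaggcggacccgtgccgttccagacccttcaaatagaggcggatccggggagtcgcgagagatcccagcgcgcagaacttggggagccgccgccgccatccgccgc
MYLK, chr3:123620499-123620798, minus strand: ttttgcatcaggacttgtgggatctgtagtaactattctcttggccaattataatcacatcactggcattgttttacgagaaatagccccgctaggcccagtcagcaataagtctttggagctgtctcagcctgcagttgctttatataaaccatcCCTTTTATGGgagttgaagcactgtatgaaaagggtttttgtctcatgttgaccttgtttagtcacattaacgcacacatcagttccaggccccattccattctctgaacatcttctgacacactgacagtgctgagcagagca
CCN2, chr6:131951323-131951622, minus strand: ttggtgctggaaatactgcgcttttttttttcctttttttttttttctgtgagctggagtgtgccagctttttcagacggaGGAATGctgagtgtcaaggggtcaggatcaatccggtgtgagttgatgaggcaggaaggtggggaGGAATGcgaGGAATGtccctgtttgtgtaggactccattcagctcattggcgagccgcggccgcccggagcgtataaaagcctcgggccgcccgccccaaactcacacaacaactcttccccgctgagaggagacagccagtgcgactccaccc

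The motifs were searched on both strands and may overlap. TTTGAA stood in 20 of the 31 promoters of mitosis genes with a RefSeq window (64.5%), against 15.4% of all 27305 promoters, and CCAAT in 74.2%, against 35.7%. An E2F motif, TTTGGCGC or TTTCCCGC, stood in 14 of the 31 promoters of replication genes (45.2%), against 2.31% of all. The CArG box stood in 6 of 23 promoters of actin genes (26.1%, against 1.29%) and in 1 of 17 of immediate early genes. GGAATG stood in 8 of 18 promoters of YAP and TEAD targets (44.4%, against 14%), and the interferon element, GAAA followed by 2 bases of any kind and GAAA, in 13 of 19 of interferon-stimulated genes (68.4%, against 3.65%). Members are set here by whether they hold the motif, with no test. The median log2 change between 24 and 48 h of mitosis genes was -1.42 with TTTGAA and -1.47 without it, and that of YAP and TEAD targets 1.10 with GGAATG and 1.04 without it. Replication genes had -0.66 with an E2F motif and -0.99 without, and interferon-stimulated genes 0.06 with the element and 0.68 without. Of the other motifs searched, TGAGTCA, bound by AP-1, stood in 1 of 17 promoters of immediate early genes (5.88%, against 4.92% of all), GGAAGGAA, a pair of the ETS core, in 1 of 30 of genes activated by EWS-FLI1 (3.33%, against 3.58%), and TCANNCCAC, bound by SREBP, in 2 of 22 of cholesterol genes (9.09%, against 3.92%).

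Between 24 and 48 h of FLI1 hairpin a large part of the transcriptome changed. Of 20926 genes tested, 4043 were higher at 48 h (19.3%) and 4206 were lower (20.1%), at a limma adjusted p under 0.05 on log2 of the normalised count plus 1. At least 2-fold moved 1424 of the higher genes and 910 of the lower ones, and at least 8-fold 121 of the higher genes and none of the lower ones. This split depends on the scaling and the filter, with 1144 higher and 1182 lower genes past 2-fold after quantile normalisation and 817 and 738 at a mean of at least 50. The median change of all genes was 0.01 on the log2 scale, with quartiles of -0.32 and 0.37. Without replicate 3 of 48 h 3979 genes were higher (19%) and 3863 lower (18.5%), and 3535 of the higher and 3599 of the lower genes were called both ways. The 3 values of 48 h all lay above those of 24 h for 26.7% of the genes tested and all below for 26.6%.

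Over the same day in shScramble cells no gene passed the test, with 409 genes at an unadjusted p under 0.05, 0 calls by edgeR and 1 lower call by DESeq2. Before adjustment 2437 genes had a limma p under 0.05 with the replicate numbers as a block, and 1390 with replicates 3 to 5 alone. Neither run called a gene. Without the block and with all replicates the median change was -0.02, with quartiles of -0.10 and 0.08. The change of shFLI1 cells differed from that of shScramble cells, tested as the difference of both steps, for 1556 genes upward (7.44%) and 1854 genes downward (8.86%). With the replicate numbers as a block, which treats same-numbered libraries as pairs, these counts were 3519 and 3928 (16.8% and 18.8%). With shScramble replicates 3 to 5 alone they were 2562 and 2741. Below, a test against the change of shScramble cells is without the block unless it is named. Of 127 genes chosen by rule 107 differed without the block and 124 with it, the 107 among them. Apart from FLI1, EWSR1 and CHD4 these genes were chosen by their shFLI1 change, which enters this difference, so the counts are no separate support. Protein-coding genes, 14347 of those tested, had 3007 higher and 3561 lower. Among other classes of transcript 310 of 1538 lincRNAs were higher and 162 lower, and 287 of 1579 antisense transcripts were higher and 112 lower, while of 646 processed pseudogenes 25 were higher and 98 lower (median -0.23). Beside the 19.3% higher and 20.1% lower of all genes, lincRNAs and antisense transcripts had a similar share higher and a smaller share lower. Processed pseudogenes had smaller shares both ways. Reads of processed pseudogenes may be shared with their parent genes. Without a known strand setting, reads of an antisense transcript and its partner gene cannot be told apart.

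**Figure D1:**
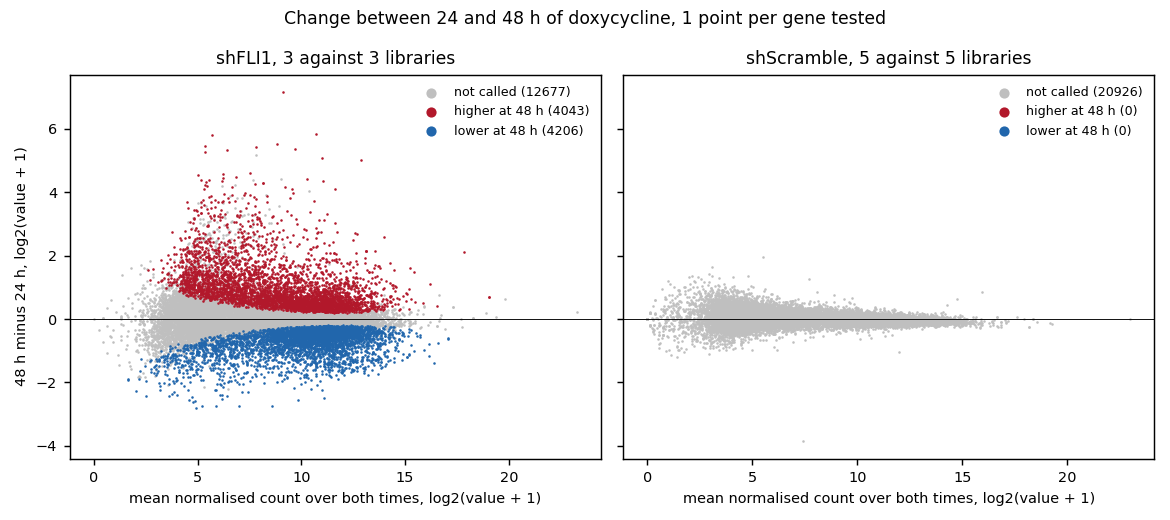
Change between 24 and 48 h of doxycycline for each of 20926 genes tested, as log2(value + 1) at 48 h minus 24 h (vertical axis), against the mean over both times (horizontal axis, log2(value + 1)), in shFLI1 cells on the left and shScramble cells on the right. In shFLI1 cells 4043 genes were called higher (red) and 4206 lower (blue); in shScramble cells no gene was called.

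The target of the hairpin stood at a reduced level at both times. FLI1 (chr11:128686535-128813267), whose reads include those of the fusion, had 1612, 1830 and 1566 normalised counts in shFLI1 cells at 48 h, against 1815, 1733 and 2021 at 24 h, in order of replicate. The values of both times overlapped (log2 -0.15, 95% interval -0.37 to 0.06, limma adjusted p = 0.232). In shScramble cells FLI1 had 3091 to 4306 at 48 h and 3616 to 4735 at 24 h, and shFLI1 cells differed from them by -1.17 on the log2 scale at 48 h and by -1.16 at 24 h. EWSR1 (chr22:29268009-29300525), the other partner of the fusion, had 12828, 13067 and 13700 at 48 h, against 18345, 17308 and 17364 at 24 h, and fell (log2 -0.42, SE 0.08, adjusted p = 0.00284). Its change did not pass the test against that of shScramble cells (difference -0.29, adjusted p = 0.175) without the replicate block and passed it with the block (adjusted p = 0.0269). The counts do not tell the fusion transcript from that of the unbroken EWSR1 allele. CHD4, the target of the other hairpins of the series, had 13153, 12493 and 13482 at 48 h, against 13802, 13898 and 16011 at 24 h (log2 -0.16, adjusted p = 0.187). In bulk RNA, a change in how many cells express a gene and a change in RNA per cell cannot be told apart.

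The largest rise was that of AADACL4, a gene named for its likeness to arylacetamide deacetylase, with 903.5, 1656 and 698 at 48 h, against 2.07, 5.58 and 16.6 at 24 h (log2 7.16, SE 0.58, adjusted p = 6.64e-05). MGP (chr12:14881181-14885926), matrix Gla protein, a secreted inhibitor of calcification, had 3640, 4422 and 1800 at 48 h, against 37.2, 65.9 and 59.7 at 24 h (log2 5.84, SE 0.33, adjusted p = 3.24e-05). In shScramble cells MGP stayed at or below 11.6 in every library. SCUBE1 (chr22:43197283-43343388), a secreted and surface glycoprotein with EGF repeats, was the most abundant of these genes at 48 h, with 16652, 14073 and 12261, against 254, 589 and 551 at 24 h (log2 5.03, SE 0.29, adjusted p = 3.24e-05). It had 4.12 to 16.8 in shScramble cells at 48 h and 3.71 to 13.7 at 24 h, so that it was already above them after 24 h. PTX3, a secreted pattern recognition protein, had 978, 1095 and 623 at 48 h, against 15.5, 20.1 and 18.8 at 24 h (log2 5.52), and at most 2.03 in any shScramble library. DHRS3, which reduces retinaldehyde, had 3611, 6034 and 2067 at 48 h, against 61, 114 and 164 at 24 h (log2 5.08).

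COL8A1, a chain of short-chain collagen, had 424, 719 and 192 at 48 h, against 13.4, 11.2 and 3.32 at 24 h (log2 5.42). CA12, a carbonic anhydrase of the cell surface, had 272, 298 and 493 at 48 h, against 12.4, 22.3 and 7.74 at 24 h (log2 4.62), and GCNT4, a glycosyltransferase, had 174, 239 and 87.2, against 3.10, 3.35 and 2.21 (log2 5.33). PDGFRA, a receptor of platelet-derived growth factor, had 214, 285 and 170.3 at 48 h, against 9.31, 11.2 and 6.63 at 24 h (log2 4.48, SE 0.27, adjusted p = 3.29e-05), where the level at 24 h was close to the 4.22 to 11.1 of shScramble cells at that time. TNFSF18, a ligand of the tumour necrosis factor family, was seen with 262 reads over the libraries of 48 h and 3 over those of 24 h, a ratio per depth of 89.4 (exact 95% interval 30.3 to 436.4, counting error only), and with 0 in every shScramble library. AMPH, which encodes amphiphysin, had 28.4, 19.6 and 387 at 48 h, against 0, 4.47 and 2.21 at 24 h, with replicate 3 highest, and rose with that library (log2 4.57, adjusted p = 0.0106) and without it (log2 3.24, adjusted p = 0.00633). The change of all 12 of these genes, EGR1 (below) among them, also differed from that of shScramble cells, a test that shares the shFLI1 change they were chosen by.

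Among the largest falls was CLSTN2 (chr3:139935185-140577397), a calsyntenin of synapses, which had 595, 712 and 639 at 48 h, against 4970, 3469 and 2862 at 24 h (log2 -2.50, SE 0.18, adjusted p = 4.38e-05). Its shScramble values, 23559 to 36148 at 48 h and 22878 to 42387 at 24 h, were above both shFLI1 groups. CER1, a secreted antagonist of BMP and Nodal, had 54.3, 55.2 and 60.2 at 48 h, against 350.5, 286 and 219 at 24 h (log2 -2.29), and LHX4, a LIM homeodomain factor, had 24.8, 23 and 28.03, against 149, 124 and 149 (log2 -2.43). Both were also below shScramble cells at 24 h, where CER1 had 1563 to 2080 and LHX4 221.5 to 305.8. PRND, a relative of the prion protein, differed from these in its order: it had 249, 254 and 268 at 48 h, against 1895, 1121 and 1598 at 24 h (log2 -2.54), with 550.5 to 921.2 in shScramble cells at 48 h and 483.8 to 964.9 at 24 h, so that the 24 h shFLI1 values were the highest of all groups. CTCFL, a paralogue of CTCF known from the germ line, likewise had its highest values in shFLI1 cells at 24 h, while its 48 h values overlapped those of shScramble cells, with 17.7, 18.4 and 31.2 at 48 h, against 118, 91.6 and 157 at 24 h (log2 -2.41), 15.3 to 35.5 in shScramble cells at 48 h and 21.7 to 35.2 at 24 h. AHSG, a plasma glycoprotein, had 8.27, 20.7 and 16.6 at 48 h, against 130.3, 91.6 and 85.1 at 24 h (log2 -2.74). NME1, a nucleoside diphosphate kinase whose reads may be shared with the overlapping NME1-NME2 readthrough, had 679, 803 and 629, against 4163, 3458 and 2443 (log2 -2.22), and SLC38A5, an amino acid transporter, had 517, 483 and 438, against 2968, 2420 and 1507 (log2 -2.21).
The others among the 12 largest falls were the histone gene H2BC14 (log2 -2.53), PALM3 (-2.39), and the transcripts AL606500.1 (-2.73) and AC017053.1 (-2.30), to which no role is given here.

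**Figure D2:**
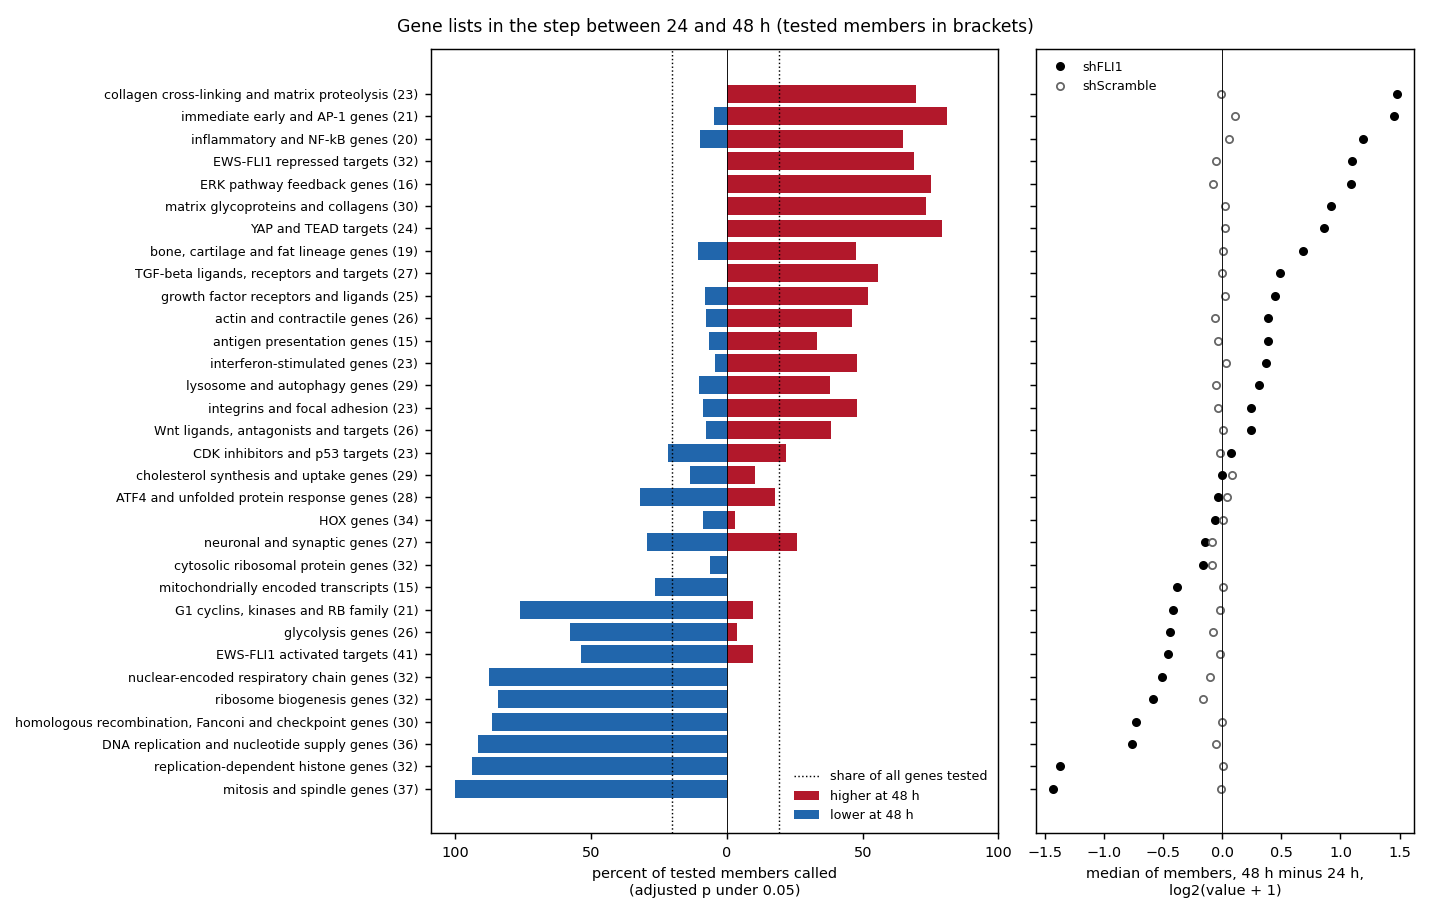
Share of the tested members of each gene list called higher (red) or lower (blue) at 48 h than at 24 h in shFLI1 cells (left, with dotted lines at the 19.3% and 20.1% of all genes tested) and the median change of the members on the log2(value + 1) scale in shFLI1 cells (filled) and shScramble cells (open) (right). Medians in shFLI1 cells spread between -1.43 for mitosis genes and 1.48 for genes of collagen cross-linking and matrix proteolysis, while those of shScramble cells stayed near 0.

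Of 30 tested collagens and matrix glycoproteins 22 were higher at 48 h and none was lower, with a median log2 change of 0.92, beside 0.01 over all genes. Counts of members here and below stand beside the 19.3% of all genes called higher and the 20.1% called lower. FN1 (chr2:215360440-215436172), fibronectin, had 356214, 487492 and 289878 normalised counts at 48 h, against 80449, 72624 and 105973 at 24 h (log2 2.12, SE 0.22, adjusted p = 2.20e-04), which was 0.567 to 0.904% of all reads at 48 h and 0.141 to 0.203% at 24 h. In shScramble cells it had 24532 to 34153 at 48 h and 30848 to 38794 at 24 h, below both shFLI1 groups. The fibrillar collagen chains COL5A1 (log2 1.29), COL5A2 (1.499) and COL3A1 (1.09) rose together, COL5A2 with 74697, 69774 and 49971 at 48 h, against 20041, 23711 and 24262 at 24 h. FBN1, the microfibril protein fibrillin, averaged 394.3 at 48 h and 82.8 at 24 h (log2 2.22), and FBLN5, a fibulin of elastic fibres, 92.1 at 48 h and 5.06 at 24 h (log2 3.89). The chains of type I collagen did not pass: COL1A1 averaged 383 at 48 h and 374.1 at 24 h (log2 0.01, adjusted p = 0.965), and COL1A2 60.9 at 48 h and 69.4 at 24 h (log2 -0.17, adjusted p = 0.564). Elastin, lumican, decorin, versican, THBS2 and COL6A3 did not pass either, and EFEMP1 and POSTN were below the filter on low values.

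Of 23 tested genes that cross-link and cut the matrix 16 were higher and none lower, with a median of 1.48. Their median was 1.20 without replicate 3 of 48 h. MMP2, the gelatinase that degrades basement membrane collagen, had 3025, 3250 and 2244 at 48 h, against 433, 510.4 and 499.7 at 24 h (log2 2.54, SE 0.14, adjusted p = 3.24e-05), with 215.4 to 269.6 in shScramble cells at 48 h. PLAU, the urokinase that activates plasminogen, averaged 347.5 at 48 h and 39.8 at 24 h (log2 3.12), and PLAT, the tissue plasminogen activator, 2045 at 48 h and 463.8 at 24 h (log2 2.07). Inhibitors of these enzymes rose as well. SERPINE2, an inhibitor of plasminogen activators, had 7661, 9173 and 6218 at 48 h, against 2761, 2628 and 2494 at 24 h (log2 1.53), and TIMP3, an inhibitor of metalloproteinases, had 3221, 3192 and 2604, against 1269, 1340 and 1194 (log2 1.24). Both differ from MMP2 in their place among the groups: SERPINE2 had 6086 to 7502 and TIMP3 2355 to 3592 in shScramble cells at 24 h, above the shFLI1 values of 24 h. LOX and LOXL2 to LOXL4, oxidases that cross-link collagen, rose by 1.09 to 2.11 on the log2 scale, while LOXL1, of the same family (log2 -0.03, adjusted p = 0.885), PLOD1, PLOD2 and P4HA1 did not pass.

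Of 26 tested genes of actin and contractile proteins 12 were higher and 2 lower, with a median of 0.39. With each library left out in turn 9 to 14 were higher and 2 or 3 lower. CALD1, caldesmon, which binds actin and tropomyosin, had 26820, 35040 and 20644 at 48 h, against 4038, 4170 and 5170 at 24 h (log2 2.60, SE 0.18, adjusted p = 3.98e-05), with 1651 to 3108 in shScramble cells at 48 h. The tropomyosin genes split: TPM1 had 17932, 21895 and 14508 at 48 h, against 5447, 5350 and 5835 at 24 h (log2 1.69), TPM2 rose by 1.16 on the log2 scale, TPM4 did not pass (log2 0.18, adjusted p = 0.208), and TPM3 was lower at 48 h (log2 -0.84, adjusted p = 4.14e-04). MYLK, the myosin light chain kinase whose promoter is shown above, averaged 4232 at 48 h and 1473 at 24 h (log2 1.49). The actin genes themselves, ACTB (log2 -0.32, adjusted p = 0.0886), ACTG1 and ACTA2, did not pass.
Of 23 tested genes of integrins and focal adhesions 11 were higher and 2 lower (median 0.24), and 14 were higher without replicate 3 of 48 h. VCL, vinculin, had 19007, 18969 and 13549 at 48 h, against 8046, 8104 and 7648 at 24 h (log2 1.10), PARVA, parvin, which links integrins to actin, had 4085, 4361 and 4149, against 1886, 2038 and 2052 (log2 1.08), and the integrin chain ITGB8 rose by 1.335 on the log2 scale. ITGA6, a chain of laminin receptors, averaged 1854 at 48 h and 3513 at 24 h and was lower (log2 -0.93, adjusted p = 7.11e-04).

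Targets of YAP and TEAD, the effectors of the Hippo pathway, were higher in 19 of 24 tested members and lower in none (median 0.86). CCN2, a matricellular protein whose promoter holds GGAATG 3 times, had 1943, 2298 and 2129 at 48 h, against 331, 246 and 328 at 24 h (log2 2.82, SE 0.13, adjusted p = 2.64e-05). The shFLI1 values of 24 h lay within the 274.4 to 395.6 of shScramble cells at that time or just below, and those of 48 h were above the 195.3 to 451.5 of shScramble cells at 48 h. ANKRD1, an ankyrin repeat protein, had 256, 529 and 861 at 48 h, against 17.6, 22.3 and 35.4 at 24 h (log2 4.29), and NT5E, the ectonucleotidase CD73, had 263, 374 and 252, against 43.4, 51.4 and 48.6 (log2 2.59). CRIM1, a membrane protein that binds BMPs, had 5416, 6242 and 3903 at 48 h, against 1303, 1256 and 1148 at 24 h (log2 2.04), with 2269 to 3022 in shScramble cells at 24 h, between the shFLI1 groups. AXL, a receptor tyrosine kinase, had 253, 289.8 and 185 at 48 h, against 39.3, 46.9 and 24.3 at 24 h (log2 2.71). IGFBP3, which is also on this list, was at 0 in replicates 1 and 2 of 48 h and in all 3 libraries of 24 h and at 357.2 in replicate 3 of 48 h, and is not called.

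Immediate early genes, which answer growth factors and stress within minutes, were higher at 48 h in 17 of 21 tested members and lower in 1 (median 1.45). Their median was 1.09 without replicate 3 of 48 h. EGR1 (chr5:138465490-138469315), a zinc finger factor, had 1441, 998 and 2364 at 48 h, against 22.8, 49.1 and 38.7 at 24 h (log2 5.38, SE 0.35, adjusted p = 3.49e-05). The shFLI1 values of 24 h were near those of shScramble cells, which had 13.1 to 44.8 at 48 h and 12.04 to 34.8 at 24 h. FOS, a subunit of AP-1, had 1409, 883 and 1996 at 48 h, against 74.4, 71.5 and 91.8 at 24 h (log2 4.09, SE 0.27, adjusted p = 3.49e-05), and here all shFLI1 values of 24 h were below the 116 to 273.9 of shScramble cells at 24 h. FOSL2 had 1281, 1358 and 930.3 at 48 h, against 255, 211 and 189 at 24 h (log2 2.43), and ATF3, a stress-induced partner of JUN, had 3099, 3136 and 3921, against 1133, 884.5 and 1134 (log2 1.69). JUN rose less, with a mean of 4016 at 48 h and 1951 at 24 h (log2 1.05), and FOSB rose by 3.73 and EGR2 by 3.71 from low levels. KLF6 was the member that was lower (log2 -0.51, adjusted p = 0.0436), a call lost without replicate 1 or 2 of 48 h or replicate 1 or 3 of 24 h, and NR4A1, NR4A2 and KLF10 did not pass. Against shScramble cells the list had 15 members higher and 2 lower at 48 h (33.1% and 31.3% of all genes), and 5 higher and 7 lower at 24 h (24% and 20.9% of all genes).

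Feedback inhibitors of ERK signalling, which ERK activity is known to induce, were higher in 12 of 16 tested members and lower in none (median 1.09). DUSP6, a phosphatase that switches off ERK, had 601, 695 and 543 at 48 h, against 35.2, 56.96 and 33.2 at 24 h (log2 3.88, SE 0.22, adjusted p = 3.24e-05). SPRY1, a Sprouty inhibitor of receptor tyrosine kinase signalling, had 431, 501 and 305 at 48 h, against 18.6, 22.3 and 19.9 at 24 h (log2 4.25, SE 0.21, adjusted p = 2.97e-05). Both were above shScramble cells already at 24 h, where DUSP6 had 6.33 to 19.3 and SPRY1 at most 3.24. PHLDA1 had 1011, 1018 and 847 at 48 h, against 189, 264 and 294 at 24 h (log2 1.96). DUSP5, DUSP14, SPRED3 and RASA2 did not pass, and 6 members, among them DUSP4, SPRY4, ETV1 and ETV4, were below the filter.

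**Figure D3:**
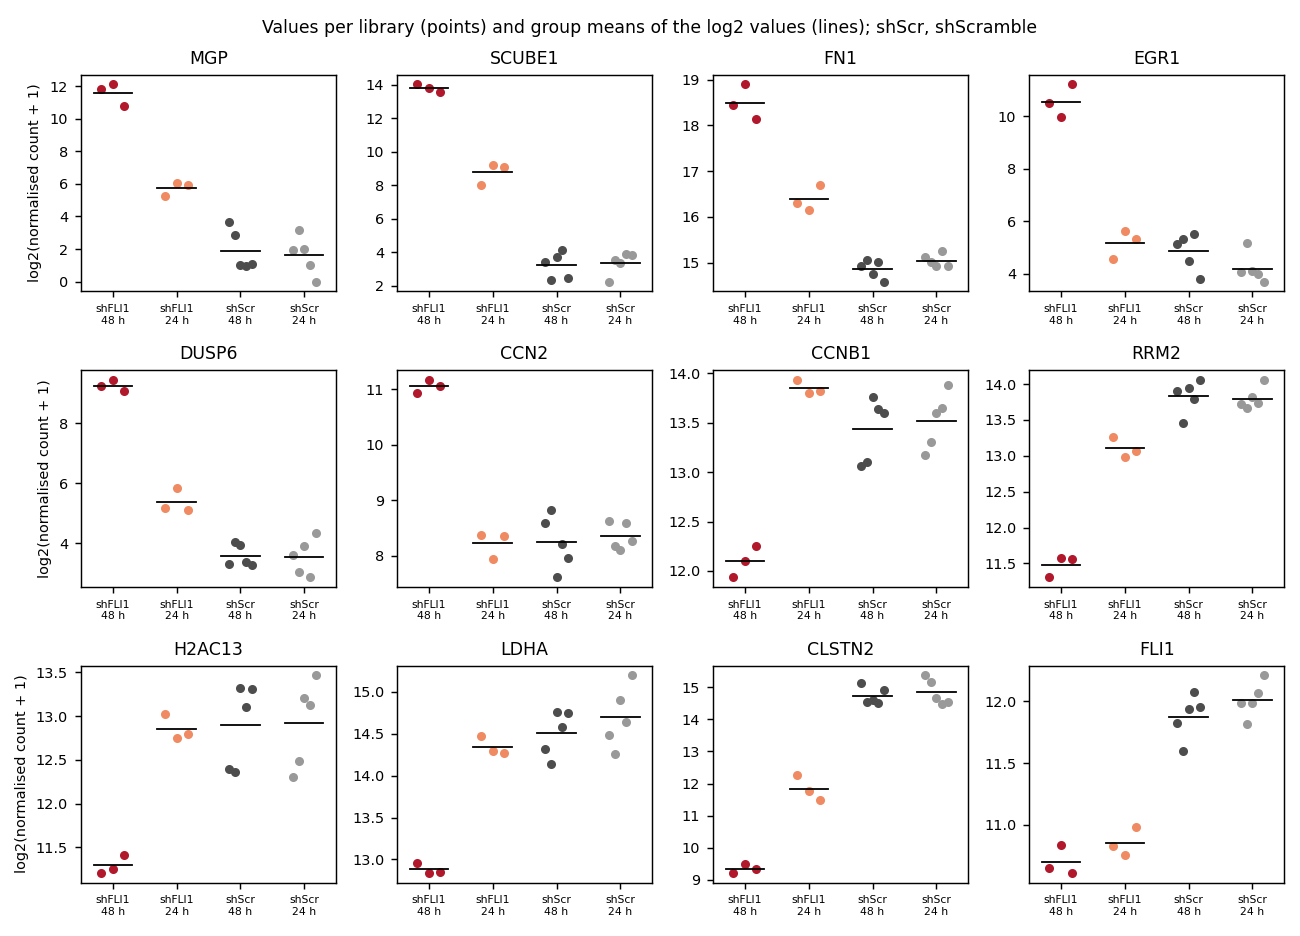
Normalised count plus 1 on a log axis of 12 genes in each library, with 1 point per library and a bar at the mean, in the order shFLI1 48 h, shFLI1 24 h, shScramble 48 h, shScramble 24 h. EGR1 and CCN2 at 24 h lie near shScramble cells and rise clear of them at 48 h, CCNB1 falls below them at 48 h, and FLI1 stays at the same reduced level at both times.

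In the TGF-beta pathway 15 of 27 tested members were higher and none was lower (median 0.49). With each library left out in turn 11 to 17 were higher, the most without replicate 3 of 48 h. TGFB2, a ligand, had 1135, 1106 and 1353 at 48 h, against 399, 439 and 541 at 24 h (log2 1.39), although its change did not pass against that of shScramble cells without the replicate block (difference 1.41, adjusted p = 0.0668) and passed with it (adjusted p = 0.00334). LTBP1, which stores the ligand in the matrix, had 21123, 25660 and 15765 at 48 h, against 5536, 6715 and 7175 at 24 h (log2 1.67), and SMAD3, which carries the signal to the nucleus, had 5383, 5423 and 4637, against 2618, 2688 and 2510 (log2 0.98). The receptors TGFBR2 and TGFBR3 rose by 1.32 and 1.35, and TGFBI, a matrix target, by 3.45. TGFB1, TGFB3, TGFBR1, SMAD2 and SMAD4 did not pass.

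Inflammatory and NF-kB genes were higher in 13 of 20 tested members and lower in 2, with a median of 1.19 that was 0.72 without replicate 3 of 48 h. TNFRSF12A, the receptor of TWEAK, had 582, 614 and 498 at 48 h, against 190.2, 112 and 109 at 24 h (log2 2.08), and RELB, an NF-kB subunit, had 133.5, 179 and 149.5, against 47.6, 31.3 and 39.8 (log2 1.95). In shScramble cells at 24 h TNFRSF12A had 72.1 to 173.4 and RELB 29.5 to 50.6, with the shFLI1 values of 24 h at or near those ranges. The cytokine gene IL1B was lower, with a mean of 113.4 at 48 h and 280 at 24 h (log2 -1.30, adjusted p = 5.10e-04), as was TNFAIP6 (log2 -0.99).
Of 23 tested interferon-stimulated genes 11 were higher and 1 was lower (median 0.37). STAT2 and IRF9, parts of the factor of the type I interferon response, rose by 0.77 and 0.88, STAT2 with 6387, 6375 and 5416 at 48 h, against 3002, 3742 and 3924 at 24 h. IFIT1, an interferon-induced RNA-binding protein, had 99.2, 167 and 117 at 48 h, against 285, 268 and 237 at 24 h, and was lower (log2 -1.07, adjusted p = 0.00342). Only 6 or 7 members were higher without replicate 1 or 2 of 48 h or replicate 1 or 3 of 24 h, with a median of 0.32 to 0.37.
For antigen presentation 5 of 15 tested members were higher and 1 lower (median 0.39), among them HLA-E, a ligand of natural killer cell receptors, with 2502, 2172 and 2111 at 48 h, against 1096, 959 and 969.6 at 24 h (log2 1.16), and ERAP2, which trims peptides, with 139, 159 and 215, against 46.5, 55.8 and 40.9 (log2 1.81). HLA-B, HLA-C and B2M did not pass. CANX, a chaperone of the endoplasmic reticulum, was the lower member, and without replicate 3 of 48 h it did not pass (adjusted p = 0.105), nor without replicate 2 of 48 h or replicate 1 or 2 of 24 h.

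All 37 tested genes of mitosis and the spindle were lower at 48 h, by log2 changes of -1.75 to -0.72 (median -1.43), and for all 37 the change differed from that of shScramble cells. CCNB1 (chr5:69167010-69178245), the cyclin that drives entry into mitosis, had 3920, 4403 and 4876 at 48 h, against 15638, 14251 and 14420 at 24 h (log2 -1.75, SE 0.10, adjusted p = 2.97e-05). In shScramble cells it had 8552 to 13907 at 48 h and 9214 to 15105 at 24 h, so that the 24 h shFLI1 values lay at the top of that range and the 48 h values below it. BUB1B, a spindle checkpoint kinase whose promoter is shown above, had 2799, 3158 and 3467 at 48 h, against 10570, 9729 and 9257 at 24 h (log2 -1.65), and AURKA, a centrosome kinase, had 1805, 1827 and 2081, against 6588, 5504 and 6030 (log2 -1.66). CCNB2 averaged 2788 at 48 h and 6515 at 24 h (log2 -1.22), MKI67, the proliferation antigen, 6230 at 48 h and 15233 at 24 h (log2 -1.29), and TOP2A, the topoisomerase of mitosis, 17073 at 48 h and 41943 at 24 h (log2 -1.30). The factors that govern these genes fell too, FOXM1 (log2 -1.42) and MYBL2, which encodes B-MYB (log2 -1.50), the second with 2845, 3345 and 3607 at 48 h, against 9898, 9046 and 8758 at 24 h. Set against shScramble cells of the same time, 36 of the 37 genes were lower and none was higher at 48 h, while at 24 h 22 were higher and none was lower. Of all genes 31.3% were lower and 33.1% higher at 48 h, and 20.9% lower and 24% higher at 24 h. Relative to the shScramble mean, the median of the list was -1.21 to -0.98 in the libraries of 48 h and 0.30 to 0.44 in those of 24 h.

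Of 36 tested genes of DNA replication and nucleotide supply 33 were lower and none was higher (median -0.76). RRM2, the subunit of ribonucleotide reductase that limits nucleotide supply, had 2537, 3051 and 3030 at 48 h, against 9872, 8081 and 8582 at 24 h (log2 -1.62, SE 0.11, adjusted p = 3.63e-05). Unlike CCNB1 it was below the 13043 to 17058 of shScramble cells already at 24 h. ORC1, of the origin recognition complex, had 758, 776 and 729.9 at 48 h, against 3055, 2365 and 2162 at 24 h (log2 -1.73), and GINS1, of the replicative helicase, had 1076, 1214 and 1138, against 2536, 2350 and 2487 (log2 -1.11). In the core of that helicase the log2 changes of MCM2 to MCM5 and MCM7 were -0.80 to -0.30, with MCM2 and MCM5 not passing without replicate 3 of 48 h (adjusted p = 0.0666 and 0.0708), and MCM6 did not pass (log2 -0.19, adjusted p = 0.125), nor did CDT1 and POLE2. At 24 h 9 members of the list were lower than in shScramble cells and 1 was higher, beside 20.9% and 24% of all genes. At 48 h 31 were lower and none was higher, beside 31.3% and 33.1%.
Homologous recombination, Fanconi and checkpoint genes were lower in 26 of 30 tested members and higher in none (median -0.73). FANCD2, the Fanconi protein that is ubiquitinated at crosslinks, had 1139, 1272 and 1275 at 48 h, against 4077, 3646 and 3452 at 24 h (log2 -1.60, SE 0.09, adjusted p = 3.24e-05). BRCA1 had 2817, 2904 and 2980 at 48 h, against 6152, 6061 and 6136 at 24 h (log2 -1.08), and BRCA2, which acts in the repair of double-strand breaks, had 1461, 1739 and 1651, against 4834, 4545 and 4127 (log2 -1.48). PALB2, FANCL, ATM and RAD50 did not pass.
Replication-dependent histone genes, transcribed in S phase, were lower in 30 of 32 tested members and higher in none (median -1.37). H2AC13 had 2368, 2441 and 2729 at 48 h, against 8293, 6875 and 7114 at 24 h (log2 -1.56), close to H2AC4 (-1.69) and H2AC8 (-1.37); these genes are near-identical copies, so that reads may be split among them. H2AC12 and H4C9 did not pass.

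Of 21 tested G1 cyclins, kinases and E2F and RB genes 16 were lower and 2 were higher (median -0.42). With each library left out in turn 12 to 15 were lower and 2 higher. The higher ones were CDK6, a kinase that phosphorylates RB, with 7913, 8642 and 7283 at 48 h, against 2012, 2801 and 2074 at 24 h (log2 1.80, adjusted p = 4.58e-05), and its partner CCND2, with a mean of 404.6 at 48 h and 175.5 at 24 h (log2 1.22). CCND1, the cyclin D gene that EWS-FLI1 is known to activate, averaged 176.8 at 48 h and 427.3 at 24 h (log2 -1.23), against 11042 in shScramble cells at 48 h and 10913 at 24 h. E2F2 (log2 -1.80), E2F8 (-1.38), E2F7 (-1.08) and E2F1 (-0.83) fell, and RB1, RBL2 and E2F4 did not pass.
CDK inhibitors and p53 targets had 5 of 23 tested members higher and 5 lower (median 0.07), near the 19.3% and 20.1% of all genes. CDKN1C, which encodes the inhibitor p57, had 6720, 7379 and 5909 at 48 h, against 2849, 3270 and 3488 at 24 h (log2 1.06, adjusted p = 1.96e-04), and 172.3 to 367 over the shScramble libraries. Its change did not pass against that of shScramble cells without the replicate block (difference 0.79, adjusted p = 0.0525) and passed with it (adjusted p = 0.00318). CDKN1A, which encodes p21, averaged 744.3 at 48 h and 301 at 24 h (log2 1.30), and in shScramble cells 30.2 at 48 h and 29.6 at 24 h. TP53INP1 had 4815, 4317 and 4281 at 48 h, against 1497, 1651 and 1927 at 24 h (log2 1.41), and BTG2, an antiproliferative gene, had 2076, 2035 and 1442, against 548, 527 and 659 (log2 1.67). The p53 targets MDM2 (log2 -0.31), RRM2B (-0.34) and TIGAR (-0.42) were lower, and BAX, BBC3, FAS, SESN1 and SESN2 did not pass. MDM2 and TIGAR did not pass without replicate 3 of 48 h (adjusted p = 0.09 and 0.0889), which left 3 lower, and 2 or 3 members were lower without any other 1 of the libraries but replicate 2 of 24 h.

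**Figure D4:**
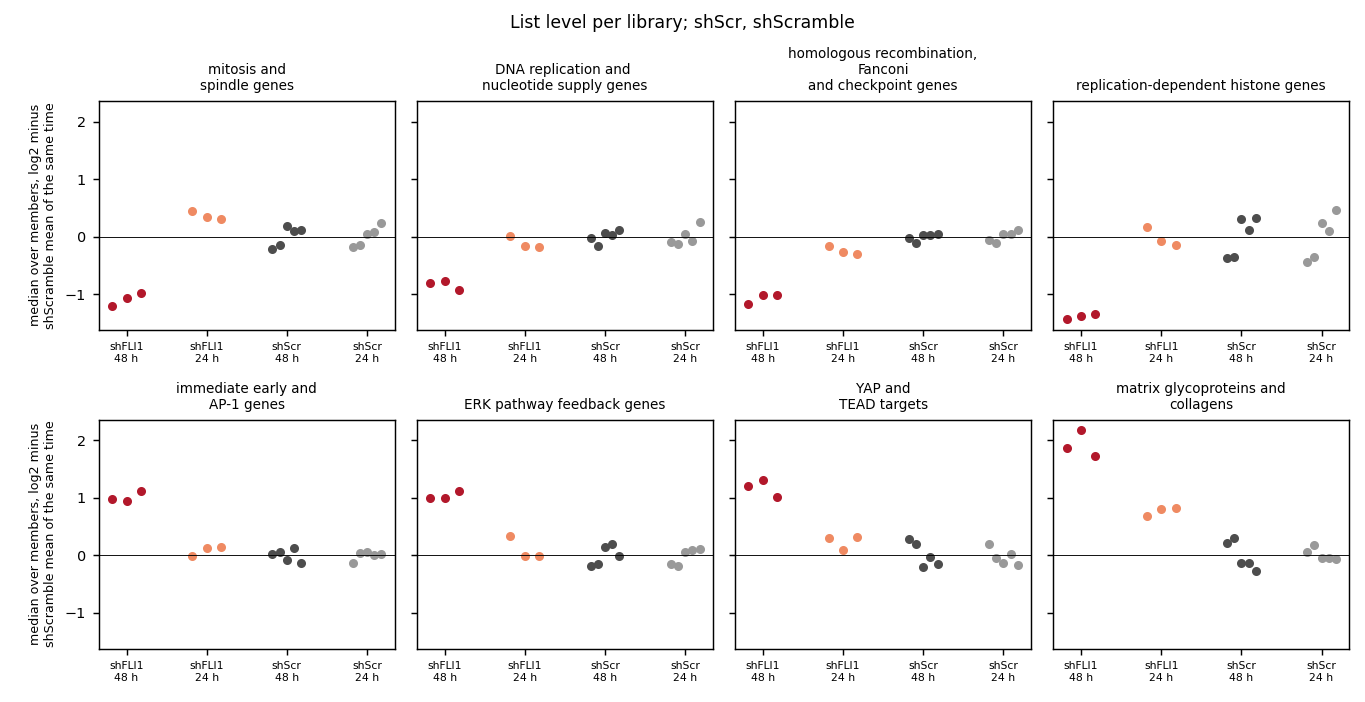
Median over the tested members of 8 gene lists in each library, relative to the mean of the shScramble libraries of the same gene (log2(value + 1)), 1 point per library, in the order shFLI1 48 h, shFLI1 24 h, shScramble 48 h, shScramble 24 h. For mitosis genes the 48 h shFLI1 libraries lie at -1.21 to -0.98 and the 24 h libraries at 0.30 to 0.44, while for immediate early genes they lie at 0.95 to 1.12 and -0.01 to 0.14.

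In ribosome biogenesis 27 of 32 tested members were lower and none was higher (median -0.59). With each library left out in turn 21 to 27 were lower. For 4 members the change differed downward from that of shScramble cells without the replicate block, beside 8.86% of all genes. With the block it differed downward for 25 and upward for 1, beside 18.8% and 16.8% of all genes. The shScramble median was also below 0 (-0.16). DKC1, which modifies ribosomal RNA, had 1370, 1488 and 1409 at 48 h, against 2874, 2254 and 2481 at 24 h (log2 -0.83), and BOP1, needed for the large subunit, averaged 1179 at 48 h and 2709 at 24 h (log2 -1.19). All 32 were below shScramble cells at both times, beside 31.3% of all genes at 48 h and 20.9% at 24 h. Of 32 tested genes of ribosomal proteins 2 were lower, RPL35 (log2 -0.51) and RPL8 (log2 -0.40, adjusted p = 0.02), and a median of -0.16. RPL8 did not pass without replicate 3 of 48 h (adjusted p = 0.0575), nor without replicate 2 of 48 h or replicate 1 or 2 of 24 h.
In glycolysis 15 of 26 tested members were lower and 1 was higher (median -0.44). LDHA, lactate dehydrogenase, had 7926, 7339 and 7366 at 48 h, against 22760, 20053 and 19674 at 24 h (log2 -1.46, SE 0.09, adjusted p = 3.28e-05), with the 24 h values within the 19550 to 37509 of shScramble cells. ENO1, enolase, had 50508, 50880 and 41881 at 48 h, against 146215, 123381 and 106089 at 24 h (log2 -1.38), and PFKP, a phosphofructokinase, was lower too (log2 -1.22). GAPDH had 120888, 103002 and 95369 at 48 h, against 185221, 163900 and 141419 at 24 h (log2 -0.62, adjusted p = 0.0126), and did not pass without replicate 3 of 48 h (adjusted p = 0.0538) or without replicate 2. PFKFB3, which makes the activator of phosphofructokinase, was the member that rose (log2 0.47). Without replicate 3 of 48 h 3 members were higher and 16 lower (median -0.64), and without replicate 1 of 48 h 2 and 14.
Nuclear genes of the respiratory chain were lower in 28 of 32 tested members and higher in none (median -0.51). With each library left out in turn 21 to 27 were lower. From the change of shScramble cells 5 differed without the replicate block and 26 with it, all downward, beside 8.86% and 18.8% of all genes. ATP5F1B, a subunit of ATP synthase, had 15666, 14214 and 17636 at 48 h, against 33274, 28781 and 32007 at 24 h (log2 -0.99), as was CYC1, cytochrome c1 (log2 -1.14). Of 15 mitochondrially encoded transcripts 4 were lower (MT-ND2, MT-ND6, MT-CO2 and MT-CO3), while MT-RNR1 and MT-RNR2, the ribosomal RNAs that dominate the libraries, did not pass (log2 0.62, adjusted p = 0.0661, and log2 0.21, adjusted p = 0.802). Without replicate 3 of 24 h 9 of the transcripts were lower (median -0.61), and without replicate 1 of 24 h 3 (median -0.24).

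Of 29 tested genes of cholesterol synthesis and uptake 3 were higher and 4 lower, with a median of 0.00. ABCG1, which exports sterols, had 453.5, 384 and 559.6 at 48 h, against 70.3, 69.2 and 86.2 at 24 h (log2 2.60, adjusted p = 3.71e-05). SREBF1, the factor of lipid synthesis, had 2233, 2583 and 2123 at 48 h, against 5916, 5027 and 4861 at 24 h (log2 -1.19). Without replicate 3 of 48 h 10 members were higher and 3 lower, with a median of 0.18. ATF4 and unfolded protein response genes had 5 of 28 higher and 9 lower (median -0.04), beside 19.3% and 20.1% of all genes. Those of amino acid supply were among the lower ones, PSAT1 (log2 -0.99), SLC7A5 (-1.24) and MTHFD2 (-0.92), while ATF4 itself did not pass (log2 0.28, adjusted p = 0.14). Lysosome and autophagy genes had 11 of 29 higher and 3 lower (median 0.31, and 0.18 without replicate 3 of 48 h). Among the higher ones were CTSA, a lysosomal protease (log2 0.77), and WIPI1, of autophagosome formation (1.17). With each library left out in turn 8 to 12 members of this list were higher.

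Of 41 tested genes known as activated by EWS-FLI1, 22 were lower at 48 h than at 24 h and 4 higher (median -0.46). For 19 members downward and 1 upward the change differed from that of shScramble cells, beside 8.86% and 7.44% of all genes. With the replicate block it differed for 23 and 5, beside 18.8% and 16.8%. Without replicate 1 or 2 of 48 h 2 members were higher. Against shScramble cells 35 were lower at 48 h and 33 at 24 h, beside 31.3% and 20.9% of all genes. STEAP1 had 169, 163 and 176.5 at 48 h, against 481, 399.8 and 442 at 24 h (log2 -1.37, adjusted p = 8.52e-05), with 2419 to 3582 in shScramble cells at 48 h and 2255 to 3444 at 24 h. BCL11B, a zinc finger repressor, had 1062, 1086 and 995 at 48 h, against 2115, 2059 and 1776 at 24 h (log2 -0.92), and FEZF1, a zinc finger factor of the forebrain, had 334, 276 and 329, against 1150, 956 and 843.5 (log2 -1.64). NR0B1, an orphan nuclear receptor, averaged 65.2 at 48 h and 159.2 at 24 h (log2 -1.24), beside 1261 in shScramble cells at 48 h. For other members the times did not differ by the test: MYC averaged 1816 at 48 h and 1940 at 24 h (log2 -0.08, adjusted p = 0.801), beside 17301 in shScramble cells at 48 h and 17309 at 24 h, and NKX2-2 1470 at 48 h and 1670 at 24 h (log2 -0.18, adjusted p = 0.146). GSTM4, DKK2, CALCB and PHF19 were higher at 48 h, by 1.02, 0.67, 0.60 and 0.52. AURKA and MYBL2 are both on this list and among the mitosis genes.

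Of 32 tested genes known as repressed by EWS-FLI1, 22 were higher at 48 h and none was lower (median 1.10). Against shScramble cells 25 were higher at 48 h and 16 at 24 h, beside 33.1% and 24% of all genes. DKK1, a secreted Wnt antagonist, had 2480, 3288 and 1285 at 48 h, against 101, 169 and 60.8 at 24 h (log2 4.42, SE 0.41, adjusted p = 1.18e-04), and at most 1.01 in any shScramble library. FOXO1, a forkhead factor that arrests growth, averaged 4930 at 48 h and 2297 at 24 h (log2 1.10), and SNAI2, a factor of mesenchymal transition, 1252 at 48 h and 388.6 at 24 h (log2 1.69). IGFBP5 averaged 25008 at 48 h and 20010 at 24 h (log2 0.31, adjusted p = 0.199), above the 1297 of shScramble cells at 48 h. IGFBP3 and MYL9, also on the list, were near 0 outside replicate 3 of 48 h, and TPM4, NR2F1, NR2F2, IL6, CXCL12, COL1A1 and COL6A3 did not pass.

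Among growth factor receptors and ligands 13 of 25 tested members were higher and 2 lower (median 0.45). PDGFRA and AXL are given above, PDGFRB averaged 7914 at 48 h and 3375 at 24 h (log2 1.21), MET, the receptor of hepatocyte growth factor, 3019 at 48 h and 1104 at 24 h (log2 1.44), and HBEGF, a ligand of EGFR, 165.2 at 48 h and 33.3 at 24 h (log2 2.28). FGFR4 (log2 -1.49) and FGFR3 (-0.67) were lower. EGFR was at 427.8 in replicate 3 of 48 h and at 0 and 4.6 in replicates 1 and 2, and is not called. Wnt genes had 10 of 26 higher and 2 lower (median 0.24; 0 or 1 lower without any 1 library), among them DKK1, WNT9A (log2 1.78), WNT11 (1.51) and the receptor FZD4 (1.08), while the feedback target AXIN2 and the mediators LEF1 and CTNNB1 did not pass.

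Genes of bone, cartilage and fat had 9 of 19 tested members higher and 2 lower (median 0.68). PRRX1, a homeodomain factor of limb mesenchyme, had 514, 896 and 374 at 48 h, against 38.3, 53.6 and 36.5 at 24 h (log2 3.69, adjusted p = 7.12e-05), with at most 6.48 in any shScramble library. SOX5, a factor of cartilage, averaged 2349 at 48 h and 903.2 at 24 h (log2 1.38), and RUNX2, of bone, 334.8 at 48 h and 191.7 at 24 h (log2 0.80). Neuronal and synaptic genes moved both ways, 7 of 27 higher and 8 lower (median -0.15), beside 19.3% and 20.1% of all genes. NCAM1, the neural adhesion molecule, had 189, 251 and 209.7 at 48 h, against 28.95, 31.3 and 33.2 at 24 h (log2 2.75). DCX, doublecortin, rose by 1.41, while SYP, synaptophysin (log2 -1.73), MAPT, tau (-1.09), and TUBB3 (-1.08) were lower. Of 34 tested HOX genes 1 was higher and 3 lower (median -0.06). HOXB7 (log2 -0.55), HOXC11 (-0.49) and HOXD8 (-0.48) were the lower ones and HOXA2 (0.82, adjusted p = 0.0411) the higher one. HOXA2 did not pass without replicate 3 of 48 h (adjusted p = 0.0612), nor without any other 1 of the libraries but replicate 3 of 24 h.

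Markers of the cells were read beside these groups. Of the 8 Ewing sarcoma markers 5 were lower and none was higher (median -0.73), and their summed normalised counts were 12542 to 12817 at 48 h and 16347 to 17716 at 24 h. CD99, the surface antigen of the tumour, averaged 2969 at 48 h and 4376 at 24 h. The blood cell markers, 1 of 2 tested lower and 1 not called, summed to 198.9 to 289.4 at 48 h and 347.4 to 393.1 at 24 h. In shScramble cells they summed to 106.9 to 126.8 at 48 h and 88.02 to 127.2 at 24 h. Of them CD3E, SPI1 and LYZ had at most 3.12 in any shFLI1 library, CD14 at most 7.09, and PTPRC, which is known from leukocytes, had 219.7, 124 and 174 at 48 h, against 276, 333 and 329.5 at 24 h (log2 -0.89, adjusted p = 0.00961). The endothelial markers summed to 9067 to 12520 at 48 h and 5814 to 6197 at 24 h, nearly all from 1 gene, EMCN, which encodes endomucin and had 11364, 12407 and 8977 at 48 h, against 5835, 5754 and 6129 at 24 h (log2 0.87), while PECAM1, VWF, CLDN5 and ERG were at or below 10.6 in every shFLI1 library. In shScramble cells the endothelial markers summed to 1488 to 2236 at 48 h and 1724 to 2636 at 24 h. The epithelial markers, 1 of 5 tested lower and 4 not called, summed to 4780 to 5180 at 48 h and 4112 to 5252 at 24 h. In shScramble cells they summed to 9406 to 14835 at 48 h and 8255 to 10722 at 24 h. Of them KRT14 had at most 2.36, KRT19 was lower (log2 -1.88), and CDH1 and EPCAM were highest in replicate 3 of 48 h, at 782.9 and 43.6. The part of these markers' changes in the results above was not tested.

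Among called genes those that gained most in normalised count, FN1, COL3A1, COL5A2 and the small nuclear RNA RN7SK, were abundant at both times. RN7SK, which restrains transcription elongation, had 783017, 593266 and 611673 at 48 h, against 432481, 392479 and 388604 at 24 h (log2 0.70, adjusted p = 0.0228); the overlapping AL162581.1 carries identical values, and without replicate 3 of 48 h neither passed (adjusted p = 0.0796). The called genes that lost most were ENO1, GAPDH, MT-CO3 and the tubulin genes TUBA1B and TUBB. TUBA1B had 46110, 53132 and 33068 at 48 h, against 118092, 98828 and 80546 at 24 h (log2 -1.18), and TUBB averaged 72132 at 48 h and 121401 at 24 h (log2 -0.76). Beyond the genes chosen by rule, members of the lists that are named above were chosen after their values were seen.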

How the data were processed

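Total RNA libraries (stranded kit, paired reads) were made by the authors, per the labels' protocols. Per the submitters' processing notes, the tools were DESeq2 1.34.0, featureCounts 1.6.0, SAMtools 1.7, HISAT2 2.1.0 and FastQC 0.11.7, with the GRCh38 build. No source used here states the strand setting of the counting. The deposited table of 35488 genes in 28 libraries holds normalised counts, a signal in which each library's gene counts were divided by 1 size factor, as the values show: whole reads were recovered for 100% of values at a tolerance of 0.02. The main test was limma 3.58.1 (R 4.3.3, with a trend) on log2(value + 1) over the 6 shFLI1 libraries. It took the 20926 genes that averaged 10 or more across the 16 shFLI1 and shScramble libraries, with Benjamini-Hochberg adjustment and a threshold of 0.05. Every adjusted p in the text is from limma with that adjustment. It is from the main test unless the change of shScramble cells, the block or a left-out library is named. The difference of the steps was fitted over all 16.

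The genes named by rule were FLI1, EWSR1 and CHD4, the 12 largest rises and falls among called genes without overlap and with a mean of at least 100 in the higher group, up to 3 called members per list with the smallest adjusted p and that mean, and the 5 largest gains and losses. The gene lists and members were chosen with earlier results of these data known. Same-numbered shScramble libraries of 48 and 24 h deviated together (correlations 0.38 to 0.64 in 5 pairs). Replicate 5 of 48 h correlated best with replicate 3 of 24 h, not with its own number. Replicates 1 and 2 also stood apart from 3 to 5 at both times, which such correlations take in. They therefore do not settle that the numbers mark pairs, and the blocked difference is given beside the unblocked one. Alternatives were edgeR 4.0.16 and DESeq2 1.42.0 on the recovered reads, other scalings, filters and pseudocounts, the block, and each replicate left out. The scripts were tested on simulated data. Replicates were compared in 26 pairs by their counts, and no pair was alike within sampling noise. Intervals on reads cover counting error only. P-values measure the spread between these samples. Gene coordinates are from GENCODE 29 on GRCh38, in which 34232 genes of the table were found, and promoters from RefSeq. Results for some genes are not reported here.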

Additional observations from a re-analysis of the deposited data

Results flagged for a closer look

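The change of shFLI1 cells between 24 and 48 h differed from that of shScramble cells for 1556 genes upward and 1854 downward, by the test of the difference itself. The genes listed next were chosen by their shFLI1 change, which enters this difference. Among the 12 largest rises the difference of the log2 changes, shFLI1 minus shScramble, was 6.56 for AADACL4, 6.27 for COL8A1, 5.79 for TNFSF18, 5.56 for MGP, 5.47 for PTX3 and 5.24 for AMPH. It was 5.17 for SCUBE1, 4.84 for GCNT4, 4.81 for DHRS3, 4.73 for EGR1, 4.52 for CA12 and 4.43 for PDGFRA. Among the 12 largest falls it was -3.58 for AL606500.1, -2.72 for AHSG, -2.53 for LHX4, -2.46 for H2BC14, -2.41 for PRND and -2.40 for CLSTN2. It was -2.34 for PALM3, -2.32 for AC017053.1, -2.29 for CTCFL, -2.17 for CER1, -2.06 for NME1 and -2.05 for SLC38A5.

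In 2 groups of shScramble libraries 1 library lay far above the other 4. AC017053.1 reached 38.39 normalised counts in 1 library of 48 h, and EGR1 reached 34.84 in 1 library of 24 h. These were 2 of 64 checks, and chance alone sets apart a library in about 1 in 20 groups.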

How the results depend on the processing

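No named gene reversed its direction under any alternative run: 2112 values kept their side of the threshold and 39 missed it. The genes higher and lower numbered 2990 and 3354 with a spread shared with shScramble cells, 3942 and 4444 by edgeR, 4041 and 4251 by DESeq2, 3644 and 4621 after centring on the median gene, and 3290 and 4069 at a mean of at least 50. With each replicate left out in turn the higher genes numbered 3000 to 3979 and the lower ones 3297 to 3964; for the difference of the steps the ranges were 1067 to 1795 higher and 1285 to 2227 lower. DESeq2 called 1 gene lower in the shScramble step. The difference of the steps had 3519 genes higher and 3928 lower with the replicate block, and 2562 higher with shScramble replicates 3 to 5 only; the cause was not tested. In shFLI1 cells same-numbered libraries correlated at 0.11, 0.08 and 0.15, each best with its own number, which shows only a shared number; with the block 4681 genes were higher and 4953 lower.

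The 39 belong to 11 genes. RN7SK and AL162581.1 missed the threshold without any 1 of the 6 libraries, with no filter, at a mean of at least 50 and after quantile normalisation. RPL8 missed it without replicate 2 or 3 of 48 h or replicate 1 or 2 of 24 h, GAPDH without replicate 2 or 3 of 48 h, MT-CO2 and MT-CO3 (adjusted p = 0.0571) without replicate 2 of 48 h, and HOXD8 without replicate 2 of 24 h. With no filter AMPH, RPL8, MT-CO2, GAPDH and TUBB missed it, after quantile normalisation MT-CO2, and with a shared spread RPL8, HOXB7 and HOXC11. Genes repressed by EWS-FLI1 had 1 lower member without replicate 3 of 24 h, and matrix genes 1 without replicate 3 of 24 h or replicate 2 of 48 h. The median of the inflammatory list was 0.49 at a mean of at least 50, and that of the neuronal list turned to 0.11. The median of the Wnt list was 0.37 without replicate 1 and 0.14 without replicate 2 of 48 h. With 3 libraries a group, no exact test on a single value can go below p = 0.1.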
